A study of Mus musculus with 24 samples.

Results

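Chemokines are small secreted proteins that direct the movement of leukocytes, neural cells and vascular cells, and their receptors are G protein-coupled. The genes described here were the protein-coding rows of the gene table whose symbol starts with Ccl, Cxcl, Ccr, Cxcr or Ackr followed by a digit, together with Cx3cl1, and 64 of the 54532 rows met this rule. They carried 58 distinct symbols, since 6 rows repeated the symbol of another row, and 7 rows lay on unplaced scaffolds of the GRCm38 assembly. RNA was sequenced from the brains of 24 male wild-type C57BL/6J mice, 8 to 12 weeks old at the start, in 4 groups of 6. Minipumps under the skin gave saline in the vehicle groups, and 0.7 mg/kg of angiotensin II a day in the others, over 2 weeks. After pump implantation the mice had a tail vein injection of saline, or of 1000000 human amnion epithelial cells (AEC), giving the groups vehicle, angiotensin II, vehicle + AEC and angiotensin II + AEC. The injected cells came from human placentae, the mouse strain is immunocompetent, and RNA was taken from a brain hemisphere with all its cell types, so fewer cells of a type and less RNA per cell cannot be told apart.

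In the healthy brain a few chemokines are made at rest. Cx3cl1 (fractalkine) is a membrane-anchored chemokine of neurons whose receptor Cx3cr1 sits on microglia, and Cxcl12 guides migrating neurons and progenitors through Cxcr4, with Ackr3 as a scavenging receptor for it. Most other CC and CXC ligands are induced by cytokines, interferons or injury and draw monocytes, neutrophils or lymphocytes through Ccr2, Cxcr2, Cxcr3 and related receptors. The atypical receptors (Ackr) bind chemokines without G protein signalling and shape their gradients.

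No chemokine or receptor gene passed an adjusted p under 0.05 in any comparison, and the lowest unadjusted p-values belonged to genes with few reads. The values are FPKM (fragments scaled to gene length in kilobases and to the mapped fragments of the library), and the fragments behind them, recovered as whole numbers, totalled 16536449 to 25308700 per mouse. Of the 64 rows, 11 had a mean of at least 1 FPKM over the 24 mice, 21 lay between 0.1 and 1 FPKM, 27 were above 0 but under 0.1 FPKM, and 5 had no read in any mouse. The median mouse held under 10 reads for 45 of the 64 rows. A read was found for 39 to 47 of the rows in each mouse, and 10 reads or more for 18 to 25. The filter for testing, a value above 0 in at least 6 mice, left 48 rows, so 16 were not tested.

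A set of 6 libraries stood apart in their total FPKM, which was 338334 to 348597 against 277116 to 298301 in the other 18. This set held 2 vehicle, 1 angiotensin II, 1 vehicle + AEC and 2 angiotensin II + AEC mice. All of them were replicate 5 or 6 of their group. Of the 19 members with a median of 10 reads or more, 4 were higher in each of the 6 libraries than in any of the 18, namely Cx3cl1, Cxcl14, Ackr1 and the chromosome 4 row of Ccl27a, and 0 were lower in each of them. Over all 17171 genes of that depth, 17.7% were higher and 25.4% lower in each of the 6, and nothing is read from the count of 4 about the family. Of 14 lists of cell type markers, the sums of 5 were higher in each of the 6 libraries. These sums were 29.1 to 39.9 FPKM against 12.1 to 17.0 for pericytes and mural cells, 80.7 to 97.8 against 50.7 to 71.2 for endothelium, 837 to 1125 against 355 to 774 for choroid plexus, 10.7 to 15.9 against 8.11 to 10.4 for meningeal fibroblasts, and 897 to 1118 against 741 to 893 for oligodendrocytes. Microglial markers overlapped, at 62.7 to 71.3 FPKM against 63.5 to 69.3. Their part in the levels of the 4 members was not tested.

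The family was dominated by a few homeostatic ligands and 1 atypical receptor. Cx3cl1 alone accounted for 49.7% of the summed mean FPKM of the 64 rows, and Cx3cl1, Cxcl14, Ackr1 and Ccl27a together for 91.0%. Among the 10 rows of homeostatic ligands, 7 had a mean of at least 1 FPKM, compared with 0 of the 12 rows of monocyte and eosinophil CC ligands, 0 of the 5 neutrophil-attracting CXC ligands and 0 of the interferon-induced ligands Cxcl9 and Cxcl10. None of the 11 CC receptor rows and none of the 6 CXC receptor rows reached a mean of 1 FPKM either.

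**Figure D1:**
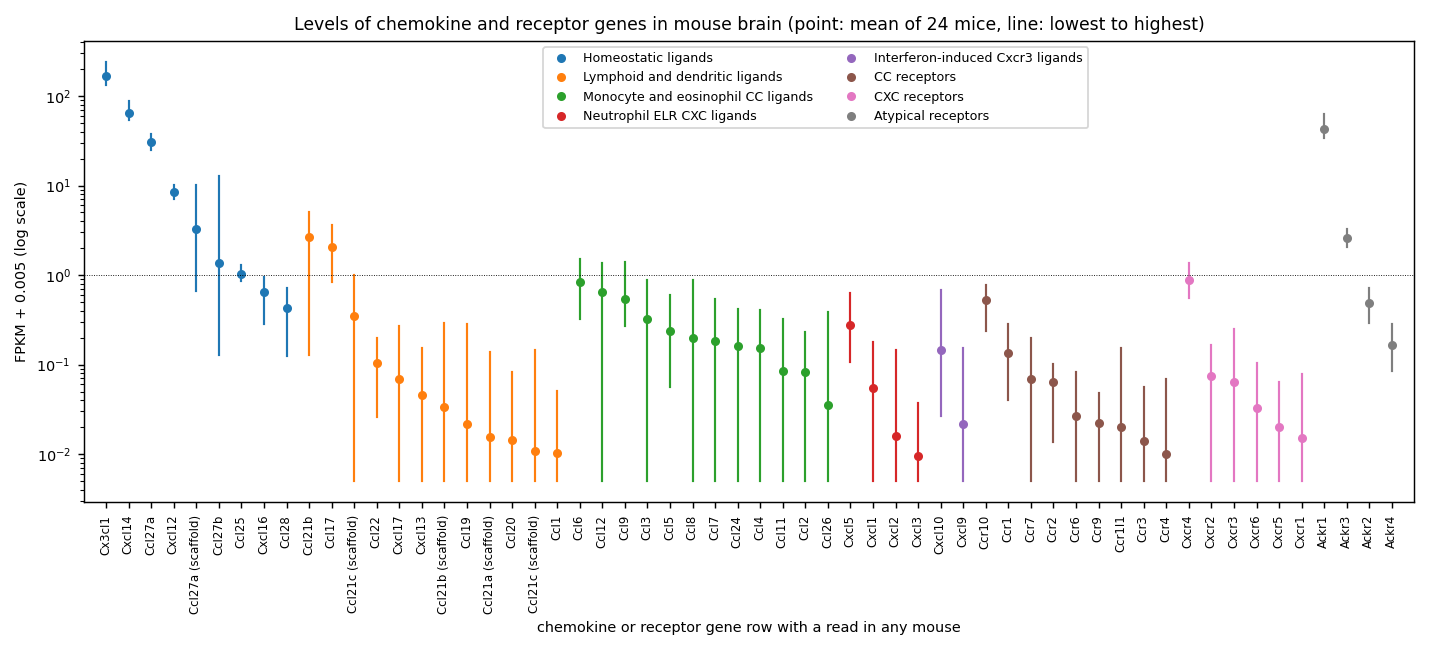
Mean (points) and lowest to highest value (lines) over 24 mice of 58 chemokine and receptor rows with a read in any mouse, as FPKM + 0.005 on a log axis, ordered by role and then by mean; the dotted line is at 1 FPKM. Cx3cl1, with a mean of 166 FPKM, stands above every other row, and most inducible ligands and leukocyte receptors lie under the line.

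Cx3cl1 (chr8:94772009-94782427, plus strand, GRCm38) had a mean of 166 FPKM. Its lowest, median and highest values were 133, 155 and 242 FPKM in vehicle mice, 134, 150 and 204 in angiotensin II mice, 137, 149 and 230 in vehicle + AEC mice, and 139, 151 and 229 in angiotensin II + AEC mice. The groups overlapped throughout, and the 6 highest mice were the 6 libraries of high total FPKM. Their values were 204 to 242 FPKM against 133 to 167 FPKM in the other 18, a ratio of medians of 1.55. Within the 18 libraries the coefficient of variation was 6.59%, compared with 21.4% over all 24. The log2 difference between angiotensin II and vehicle was -0.13 (95% interval -0.48 to 0.21), and -0.03 (95% interval -0.15 to 0.08) with the library set as a term. Between angiotensin II + AEC and angiotensin II it was 0.13 (95% interval -0.22 to 0.47), and 0.03 (95% interval -0.09 to 0.14) with the set as a term.

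Cxcl14, a CXC chemokine of interneurons and epithelia, was the next most abundant ligand with a mean of 64.3 FPKM (chr13:56288643-56296551, minus strand). It ranged over 54.9, 59.5 and 80.1 FPKM (lowest, median and highest) in vehicle, 54.6, 59.1 and 78.4 in angiotensin II, 54.4, 59.2 and 87.5 in vehicle + AEC and 55.4, 63.4 and 83.5 in angiotensin II + AEC mice. The log2 difference between angiotensin II and vehicle was -0.07 (95% interval -0.35 to 0.22), and turned to 0.01 (95% interval -0.10 to 0.13) with the library set as a term. Cxcl12, in contrast, was not higher in the 6 libraries, where it was 7.42 to 8.85 FPKM against 7.08 to 10.1 FPKM in the other 18. Its lowest, median and highest values (chr6:117168535-117181367, plus strand) were 7.77, 8.90 and 10.1 FPKM in vehicle, 7.52, 8.87 and 9.70 in angiotensin II, 7.31, 8.05 and 9.35 in vehicle + AEC and 7.08, 8.45 and 9.88 in angiotensin II + AEC mice. The groups overlapped, and the log2 difference between vehicle + AEC and vehicle was -0.11 (95% interval -0.29 to 0.07).

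The receptors of Cxcl12 were measured at lower levels. The scavenging receptor Ackr3 (chr1:90203980-90216751, plus strand) had a mean of 2.60 FPKM, and its lowest, median and highest values were 2.16, 2.55 and 3.25 FPKM in vehicle, 2.03, 2.53 and 2.77 in angiotensin II, 2.38, 2.82 and 3.03 in vehicle + AEC and 2.05, 2.52 and 3.19 in angiotensin II + AEC mice. The signalling receptor Cxcr4 (chr1:128588199-128592293, minus strand), the most abundant CXC receptor, had a mean of 0.879 FPKM and 18 to 45 reads per mouse. It was 0.543, 0.765 and 1.22 FPKM in vehicle, 0.686, 0.787 and 0.976 in angiotensin II, 0.660, 0.853 and 1.37 in vehicle + AEC and 0.650, 0.947 and 1.26 in angiotensin II + AEC mice. For both genes the 4 groups overlapped. The log2 difference between angiotensin II + AEC and angiotensin II was 0.04 (95% interval -0.18 to 0.27) for Ackr3 and 0.14 (95% interval -0.25 to 0.54) for Cxcr4.

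**Figure D2:**
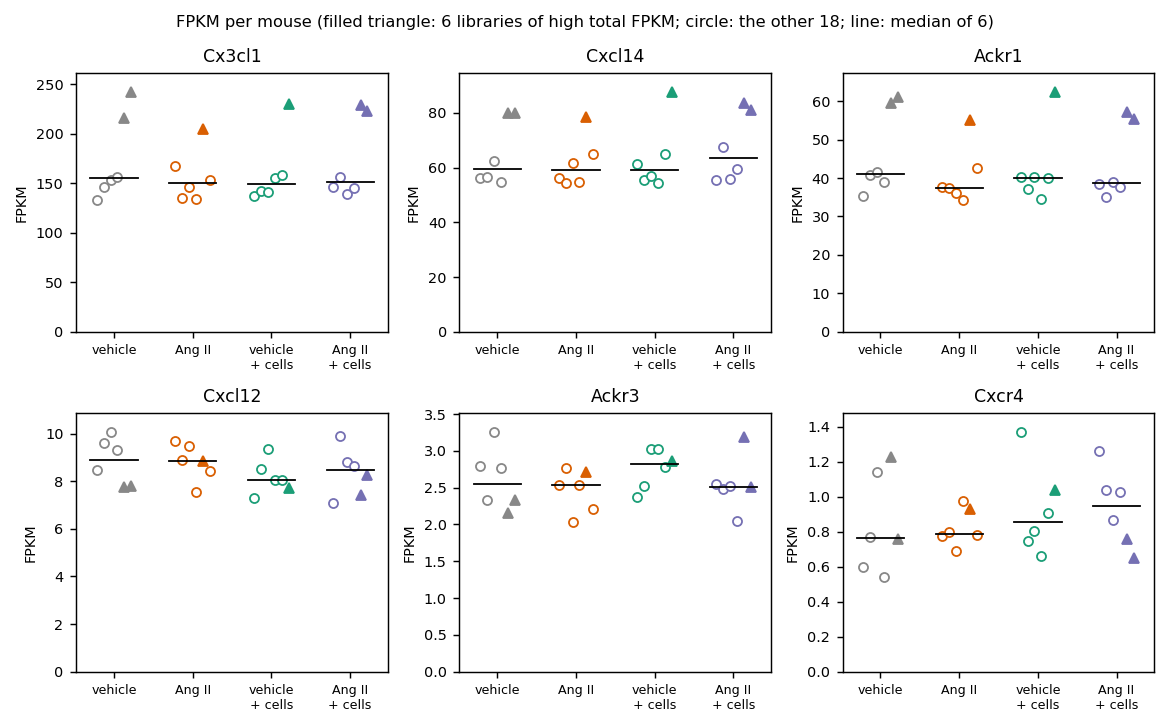
FPKM of 6 chemokine and receptor genes in each of the 24 mice by group, on axes that start at 0; filled triangles are the 6 libraries of high total FPKM, open circles the other 18, and lines the median of 6 mice (Ang II, angiotensin II; cells, AEC). Cx3cl1, Cxcl14 and Ackr1 are higher in each triangle than in any circle, whereas Cxcl12, Ackr3 and Cxcr4 overlap between the library sets.

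Ackr1, an atypical receptor of venular endothelium and red cells, had the highest mean among receptors, 43.2 FPKM (chr1:173331886-173333750, minus strand). Its lowest, median and highest values were 35.3, 41.1 and 61.0 FPKM in vehicle, 34.2, 37.4 and 55.0 in angiotensin II, 34.6, 40.05 and 62.3 in vehicle + AEC and 35.0, 38.7 and 57.1 in angiotensin II + AEC mice. The groups overlapped, and each of the 5 comparisons had a 95% interval of the log2 difference that held 0. Of its 1405 exon bases, 361 (25.7%) are shared with Cadm3, an adhesion gene of neurons on the same strand, whose mean was 91.9 FPKM. The value of Ackr1 was 39.7% to 57.7% of that of Cadm3 in the 24 mice, so its level is uncertain: the counting of shared bases is not given in the sources used here. The other members sharing exon bases with a gene on the opposite strand included Cxcl16 with Zmynd15 (552 bases), Ackr4 with Acad11 (479 bases), Ccl25 with Elavl1 (204 bases) and Cxcl10 with Art3 (133 bases), and without strand information reads of such partners cannot be told apart.

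Ccl27 and Ccl21 have copies with near-identical coding sequences on chromosome 4, so their rows must be read together. The scaffold copies were not compared. Ccl27 attracts skin-homing T cells through Ccr10, and Ccl21 attracts T cells and dendritic cells through Ccr7. The coding sequence of Ccl21b (chr4:42255767-42256432, plus strand) and that of Ccl21a (chr4:42772860-42773993, minus strand) are each 402 bases long in GENCODE M21 and differ at 2 positions, A84T and T194C, with the Ccl21b base first and positions counted from 1 at the start codon. Bases 74 to 204 are shown, with the differing bases in capitals.
Ccl21b: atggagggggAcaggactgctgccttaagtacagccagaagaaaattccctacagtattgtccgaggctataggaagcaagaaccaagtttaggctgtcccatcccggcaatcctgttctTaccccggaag
Ccl21a: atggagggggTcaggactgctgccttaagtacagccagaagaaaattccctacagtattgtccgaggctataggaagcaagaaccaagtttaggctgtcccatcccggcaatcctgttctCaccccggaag
Ccl27b (chr4:42655251-42656005, plus strand) and the transcript of Ccl27a that was compared with it (chr4:41769478-41770212, minus strand), have coding sequences of 363 bases that differ at 3 positions, T177C, A297G and C343A, with the Ccl27b base first. Bases 167 to 353 are shown in the same way.
Ccl27b: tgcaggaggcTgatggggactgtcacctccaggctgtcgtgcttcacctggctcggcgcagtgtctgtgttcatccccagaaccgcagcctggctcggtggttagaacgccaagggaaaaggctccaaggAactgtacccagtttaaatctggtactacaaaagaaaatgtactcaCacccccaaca
Ccl27a: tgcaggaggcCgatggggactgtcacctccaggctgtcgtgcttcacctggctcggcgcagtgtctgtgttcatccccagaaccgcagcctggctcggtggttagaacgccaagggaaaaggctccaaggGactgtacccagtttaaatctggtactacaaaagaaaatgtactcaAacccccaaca
The longest stretch shared without a difference is 208 bases for Ccl21b and Ccl21a and 176 bases for Ccl27b and Ccl27a. The Ccl27a transcript that was compared has 405 bases, and the chromosome 4 row of Ccl27a has a length of 2377 bases. The rest of that row was not compared with Ccl27b.

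The rows of these copies differed widely. The Ccl21a row of chromosome 4 had no read in any mouse, while its copy Ccl21b had a mean of 2.67 FPKM and 1 to 39 reads. Ccl21b was 1.31, 3.37 and 3.88 FPKM (lowest, median and highest) in vehicle, 1.62, 3.15 and 4.92 in angiotensin II, 0.124, 2.44 and 5.07 in vehicle + AEC and 0.984, 1.90 and 2.27 in angiotensin II + AEC mice. Between angiotensin II + AEC and angiotensin II the log2 difference of Ccl21b was -0.84 ± 0.53 (SE, n = 6 mice a group; limma p = 0.127, adjusted p = 1, exact permutation p = 0.0216). None of the 6 angiotensin II + AEC mice was above the angiotensin II median, and the groups overlapped. The chromosome 4 row of Ccl27a had a mean of 30.3 FPKM. It was 26.9, 30.4 and 36.9 FPKM in vehicle, 25.6, 28.8 and 35.5 in angiotensin II, 25.2, 28.0 and 37.8 in vehicle + AEC and 26.3, 28.5 and 37.8 in angiotensin II + AEC mice, and the groups overlapped. The copy of Ccl27a on a scaffold had a mean of 3.28 FPKM with a coefficient of variation of 63.5%, compared with 13.8% for the chromosome 4 row. It was 1.59, 2.05 and 5.80 FPKM in vehicle, 3.12, 4.22 and 6.80 in angiotensin II, 0.666, 2.05 and 3.07 in vehicle + AEC and 1.73, 2.35 and 10.1 in angiotensin II + AEC mice. How reads that fit several copies were counted is not given in the sources used here, so the split between these rows is uncertain.

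Angiotensin II was compared with vehicle to ask whether the hypertensive infusion alters the brain's chemokine transcripts. With limma, 0 of 48 tested members had an adjusted p under 0.05 and 0 had an unadjusted p under 0.05, compared with 0% and 2.21% of the 27286 genes tested. The log2 difference was above 0 for 22 (45.8%) and below 0 for 26 of the 48, while 55.4% of all genes tested were above 0. Its median was -0.01, compared with 0.02 over all genes tested. Of the 9 tested homeostatic ligands 2 were above 0 and 7 below, with a median of -0.07, and of the 11 monocyte and eosinophil ligands 5 were above and 6 below, with a median of -0.05. The 9 include Cx3cl1, Cxcl14 and the chromosome 4 row of Ccl27a, which were higher in each of the 6 libraries of high total FPKM. That set held 2 vehicle mice and 1 angiotensin II mouse. Copies of Ccl27 also count as separate rows, so the 2 and 7 are not read as a pattern of these ligands. Of the 6 CXC receptors 5 were above 0, with a median of 0.17, and of the 8 tested CC receptors 6 were above, with a median of 0.07. The lowest unadjusted p-values were those of the scaffold copy of Ccl27a, 0.73 ± 0.40 on the log2 scale (SE, n = 6 mice a group; limma p = 0.0846, adjusted p = 0.994, two-sided exact permutation p = 0.0519), and of Cxcr2. All 6 angiotensin II mice had more of the Ccl27a copy than the vehicle median, though the groups overlapped. With the library set as a term the difference was 0.90 (95% interval 0.24 to 1.55), the 1 member whose unadjusted p was then under 0.05. The chromosome 4 row of the same gene differed by -0.11 (95% interval -0.34 to 0.12).

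Cxcr2, the receptor through which neutrophils follow CXC ligands, was at 0, 0.0184 and 0.161 FPKM (lowest, median and highest) in vehicle, 0, 0.0974 and 0.154 in angiotensin II, 0, 0.0919 and 0.147 in vehicle + AEC and 0, 0.0466 and 0.161 in angiotensin II + AEC mice. The groups overlapped, with 0 to 11 reads per mouse. The log2 difference between angiotensin II and vehicle was 0.48 ± 0.28 (SE, n = 6 mice a group; limma p = 0.0985, adjusted p = 0.994, exact permutation p = 0.149). It was 0.68, with an unadjusted limma p under 0.05, without vehicle replicate 4, which held 9 of the 14 vehicle reads. Over the 12 fits with 1 mouse left out the difference was 0.39 to 0.68, and 2 had an unadjusted p under 0.05. The summed neutrophil markers S100a8, S100a9, Ngp, Camp and Ltf, all 5 of which were detected, were 5.22 to 13.7 FPKM in vehicle, 6.16 to 23.1 in angiotensin II, 6.65 to 14.6 in vehicle + AEC and 9.27 to 46.6 in angiotensin II + AEC mice. Their part in the Cxcr2 values was not tested. The neutrophil-attracting ligands were scarce. Cxcl5 had the highest mean of them, 0.270 FPKM, Cxcl1 had 0.0502 FPKM, and Cxcl2, Cxcl3 and Cxcl15 were not tested.

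AEC were compared with no cells in both infusions. In vehicle-infused mice, 0 of 48 members had an adjusted p and 2 an unadjusted p under 0.05 (Ccl7 and Cxcr1), compared with 0% and 2.41% of all genes tested. The median log2 difference was -0.08, compared with 0.01 over all genes. Above 0 were 18 of the 48 members (37.5%) and 52.4% of all genes. The vehicle group held 2 of the 6 libraries of high total FPKM and the vehicle + AEC group 1. In angiotensin II-infused mice, 0 had an adjusted p and 3 an unadjusted p under 0.05 (Ccl8, Ccr2 and Ccr10), compared with 0% and 2.54% of all genes. Here 24 of the 48 (50%) and 45.3% of all genes were above 0, and the median was 0.01, compared with -0.02 over all genes. Among the monocyte and eosinophil ligands 4 of 11 were above 0 with AEC in vehicle-infused mice, with a median of -0.18, and 6 of 11 in angiotensin II-infused mice, with a median of 0.13. The CC receptors had 2 of 8 above 0 in each, with medians of -0.07 and -0.16. Summed over the family, the median was 312 FPKM in vehicle, 312 in angiotensin II, 297 in vehicle + AEC and 306 in angiotensin II + AEC mice. The comparisons share groups, so their values are given side by side for each gene.

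**Figure D3:**
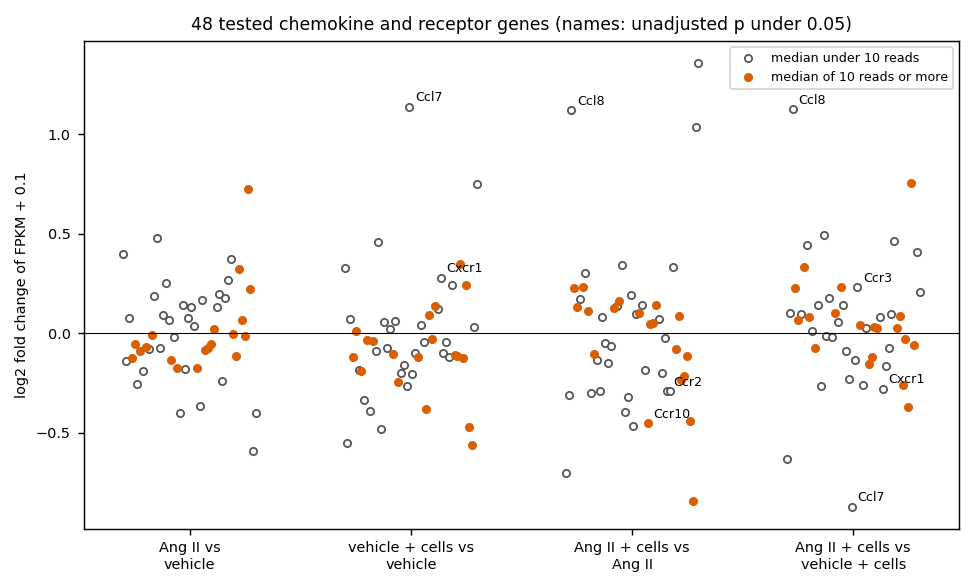
Log2 fold change of FPKM + 0.1 for the 48 tested chemokine and receptor genes in 4 comparisons, which share groups of 6 mice; filled points had a median of 10 reads or more and open points fewer, and names mark an unadjusted p under 0.05 (Ang II, angiotensin II; cells, AEC). Cxcr1 and Ccr3 never exceeded 3 reads in a mouse and are drawn as fitted values only. The members past this limit with the largest differences are Ccl7 and Ccl8, both with a median of 2.0 reads or fewer.

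Ccl7 (MCP-3, a monocyte attractant acting through Ccr2; chr11:82045712-82047525, plus strand) had the lowest unadjusted p of the family. It was 0, 0.111 and 0.198 FPKM (lowest, median and highest) in vehicle, 0, 0.101 and 0.266 in angiotensin II, 0.195, 0.337 and 0.536 in vehicle + AEC and 0.0712, 0.132 and 0.195 in angiotensin II + AEC mice. These values stood for 0 to 3, 0 to 5, 3 to 8 and 1 to 3 reads per mouse. Of the 6 vehicle + AEC mice, 5 were above every vehicle mouse. The log2 difference between vehicle + AEC and vehicle was 1.14 ± 0.29 (SE, n = 6 mice a group; limma p = 0.000646, adjusted p = 0.995), and the two-sided exact permutation p was 0.00433, where the smallest possible is 0.00216. The groups together held 31 and 10 reads, a ratio per fragment of 3.24 with an exact 95% interval of 1.55 to 7.40. Between angiotensin II + AEC and vehicle + AEC the log2 difference was -0.87 ± 0.29 (SE, n = 6 mice a group; limma p = 0.00614, adjusted p = 1, exact permutation p = 0.00433), with 13 against 31 reads, a ratio of 0.409 (exact 95% interval 0.197 to 0.805). Angiotensin II and vehicle mice differed by 0.08 (95% interval -0.52 to 0.67). The interaction was -0.95 ± 0.41 (SE; 95% interval -1.79 to -0.10, limma adjusted p = 0.931).

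Ccl8 (MCP-2; chr11:82115185-82116799, plus strand), in the same cluster of 6 CC ligand genes at chr11:82035571-82305690, was highest in angiotensin II + AEC mice. Its lowest, median and highest values were 0, 0.106 and 0.342 FPKM in vehicle, 0, 0.101 and 0.384 in angiotensin II, 0, 0.0980 and 0.420 in vehicle + AEC and 0.192, 0.320 and 0.876 in angiotensin II + AEC mice, which held 0 to 3, 0 to 4, 0 to 4 and 2 to 8 reads. All 6 angiotensin II + AEC mice were above the median of each of the angiotensin II and vehicle + AEC groups, and the groups overlapped. The log2 difference was 1.12 ± 0.46 from angiotensin II (SE, n = 6 mice a group; limma p = 0.0232, adjusted p = 1, exact permutation p = 0.0368) and 1.13 ± 0.46 from vehicle + AEC (SE, n = 6 mice a group; limma p = 0.0227, adjusted p = 1, exact permutation p = 0.0368). Read sums of 22 and 8 gave ratios per fragment of 2.77 (exact 95% interval 1.19 to 7.19) and 2.68 (exact 95% interval 1.15 to 6.97). Without angiotensin II + AEC replicate 6, which held 8 of the 22 reads, both differences were 0.89 and neither had an unadjusted limma p under 0.05. The same was so with only the 18 libraries, where the differences were 0.95 (95% interval -0.12 to 2.02) and 0.81 (95% interval -0.25 to 1.88). The interaction was 1.05 (95% interval -0.30 to 2.40). The 5 summed markers of border macrophages, all detected, were 2.32 to 5.91 FPKM in vehicle, 2.86 to 4.27 in angiotensin II, 2.39 to 4.03 in vehicle + AEC and 2.64 to 4.82 in angiotensin II + AEC mice. The part of these sums in the Ccl7 and Ccl8 values was not tested. Ccl8 was correlated with the marker Mrc1 of this list within each library set. Pearson's r was 0.18 (permutation p = 0.469, adjusted p = 0.928) across the 18 libraries and 0.04 (exact permutation p = 0.942, adjusted p = 0.942) across the other 6. The exact intervals of the read-sum ratios cover counting error only.

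Ccr2, the receptor that marks inflammatory monocytes, was 0.0290, 0.0644 and 0.0796 FPKM (lowest, median and highest) in vehicle, 0.0559, 0.0790 and 0.0945 in angiotensin II, 0.00864, 0.0482 and 0.0956 in vehicle + AEC and 0.0217, 0.0412 and 0.0843 in angiotensin II + AEC mice, with 1 to 15 reads. Of the 6 angiotensin II + AEC mice, 5 lay below every angiotensin II mouse. The log2 difference was -0.29 ± 0.14 (SE, n = 6 mice a group; limma p = 0.0468, adjusted p = 1), with 35 against 62 reads, a ratio of 0.568 (exact 95% interval 0.364 to 0.873), and an exact permutation p of 0.0152. The limma interval held 0 with the library set as a term (-0.29, 95% interval -0.59 to 0.01) and with only the 18 libraries (-0.26, 95% interval -0.60 to 0.08). Summed monocyte markers, a list that contains Ccr2 itself, were 3.41 to 4.71 FPKM in vehicle, 3.95 to 5.02 in angiotensin II, 3.10 to 4.75 in vehicle + AEC and 3.68 to 5.50 in angiotensin II + AEC mice, with all 4 genes detected, and their part was not tested. Ccr10, the receptor of Ccl27 and Ccl28, had 7 to 30 reads and was 0.568, 0.620 and 0.664 FPKM in vehicle, 0.309, 0.651 and 0.767 in angiotensin II, 0.230, 0.486 and 0.636 in vehicle + AEC and 0.231, 0.370 and 0.602 in angiotensin II + AEC mice. It differed by -0.45 ± 0.22 between angiotensin II + AEC and angiotensin II (SE, n = 6 mice a group; limma p = 0.0472, adjusted p = 1, exact permutation p = 0.0931), and with only the 18 libraries the interval of this difference held 0 (-0.45, 95% interval -0.99 to 0.09). Between vehicle + AEC and vehicle it differed by -0.38 ± 0.22 (SE, n = 6 mice a group; limma p = 0.0892, adjusted p = 0.995, exact permutation p = 0.0130), and 5 of 6 vehicle + AEC mice were below every vehicle mouse. The ratio of read sums was 0.687 (exact 95% interval 0.514 to 0.914) in the first comparison and 0.754 (exact 95% interval 0.570 to 0.996) in the second.

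**Figure D4:**
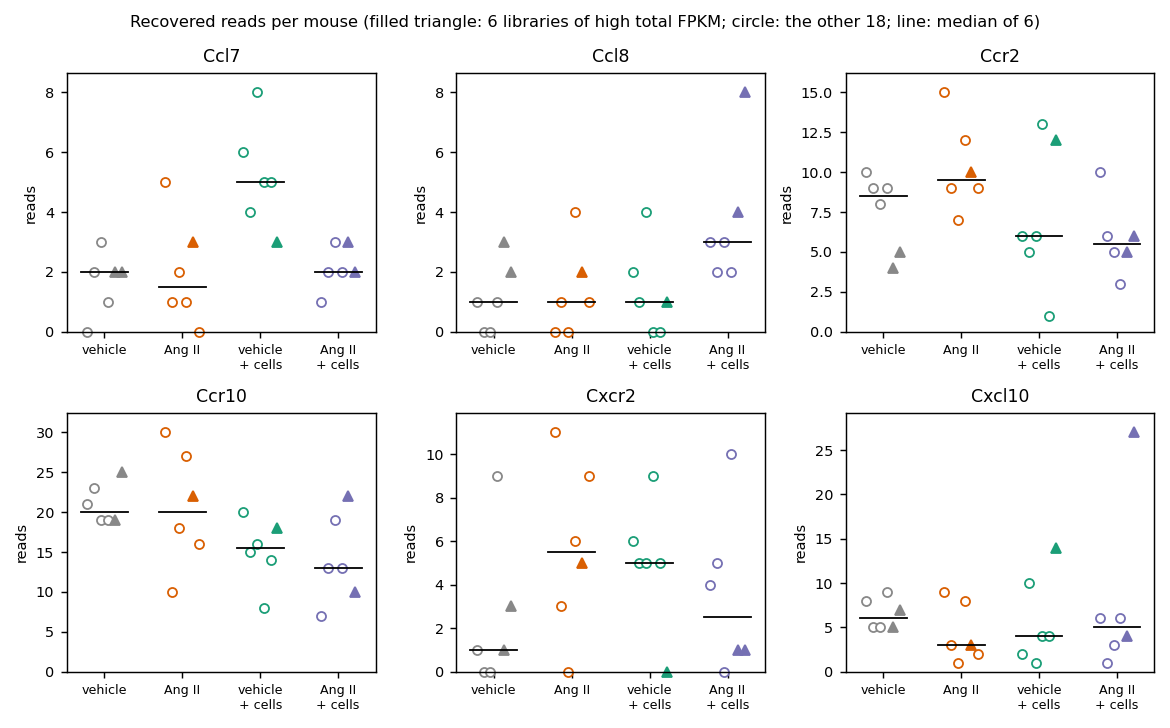
Recovered reads of 6 chemokine and receptor genes in each of the 24 mice by group; filled triangles are the 6 libraries of high total FPKM, open circles the other 18, and lines the median of 6 mice. Ccl7 has 3 to 8 reads in vehicle + AEC mice and 0 to 3 in vehicle mice, and angiotensin II + AEC replicate 6 holds the highest counts of Ccl8 (8) and Cxcl10 (27).

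Between angiotensin II + AEC and vehicle + AEC, 0 of 48 members had an adjusted p and 4 an unadjusted p under 0.05 (Ccl7, Ccl8, Ccr3 and Cxcr1), compared with 0% and 2.66% of all genes tested. The log2 difference was above 0 for 29 of the 48 (60.4%) and for 47.2% of all genes. Its median was 0.04, compared with -0.01 over all genes. For the interaction of angiotensin II and AEC, 0 had an adjusted p and 2 an unadjusted p under 0.05 (Cxcr1 and Ccl7), compared with 0% and 2.54%. Cxcr1, a neutrophil receptor, had 0 reads in every vehicle and every angiotensin II + AEC mouse, 3 reads in all among angiotensin II mice and 4 among vehicle + AEC mice. Ccr3, the eotaxin receptor of eosinophils, had 3, 4, 0 and 7 reads in the vehicle, angiotensin II, vehicle + AEC and angiotensin II + AEC groups. No mouse held more than 3 reads of either gene, so no fold change is given for them.

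The classic inflammatory ligands were at the edge of detection. Ccl2, the main monocyte attractant, had 0 to 6 reads per mouse and was 0.0438, 0.0809 and 0.144 FPKM (lowest, median and highest) in vehicle, 0, 0.0994 and 0.224 in angiotensin II, 0, 0.0440 and 0.189 in vehicle + AEC and 0, 0.0463 and 0.0860 in angiotensin II + AEC mice. Ccl5, which attracts T cells and monocytes, had 1 to 11 reads and was 0.112, 0.240 and 0.424 FPKM in vehicle, 0.0523, 0.307 and 0.409 in angiotensin II, 0.112, 0.153 and 0.597 in vehicle + AEC and 0.0510, 0.200 and 0.297 in angiotensin II + AEC mice. The groups overlapped for both genes. The log2 difference between angiotensin II + AEC and angiotensin II was -0.47 (95% interval -1.05 to 0.12) for Ccl2 and -0.40 (95% interval -1.10 to 0.31) for Ccl5. Between angiotensin II and vehicle the differences of the same genes were 0.13 (95% interval -0.45 to 0.71) and 0.14 (95% interval -0.56 to 0.85).

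Cxcl10 and Cxcl9 are induced by interferons and attract T cells through Cxcr3. Cxcl10 was 0.111, 0.126 and 0.218 FPKM (lowest, median and highest) in vehicle, 0.0240, 0.0753 and 0.174 in angiotensin II, 0.0238, 0.0960 and 0.324 in vehicle + AEC and 0.0219, 0.107 and 0.671 in angiotensin II + AEC mice. Of the angiotensin II mice, 4 of 6 were below every vehicle mouse, and the log2 difference was -0.40 (95% interval -1.12 to 0.32). Cxcr3 had 0 to 7 reads and was 0.0288, 0.0395 and 0.0945 FPKM in vehicle, 0, 0.0892 and 0.242 in angiotensin II, 0, 0.0447 and 0.0903 in vehicle + AEC and 0, 0.0438 and 0.113 in angiotensin II + AEC mice, and its groups overlapped. These ligands, with Ccl8, were among the genes whose highest value was in angiotensin II + AEC replicate 6, where Cxcl10 had 27 reads and Cxcl9 had 8.

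That mouse held the highest value of 12 of the 48 tested members, and no other mouse did so for more than 5. How often it was the highest over all genes tested was not counted, so nothing is read from the 12 about the family. The 12 were the scaffold copy of Ccl27a, Ccl27b, Ccl12, Ccl9, Cxcl5, Ccl8, Ackr4, Cxcl10, Ccr1, Ccl22, Cxcl9 and Ccr3, a set named after its values were seen. Ccl27b had 96 reads (12.6 FPKM) there and 1 to 24 reads in the other 23 mice. The library belonged to the 6 of high total FPKM, and its summed neutrophil markers were 37.8 FPKM, against a median of 18.6 FPKM in its group. Angiotensin II + AEC replicate 4 had a higher neutrophil sum, 46.6 FPKM, and was the highest mouse for 1 member. Replicate 6 had the highest sums of the 24 mice for astrocytes (176 FPKM), meningeal fibroblasts (15.9 FPKM) and oligodendrocytes (1118 FPKM). Their part in these values was not tested. Without this mouse 2 members, in place of 3, had an unadjusted p under 0.05 between angiotensin II + AEC and angiotensin II, and 3, in place of 4, between angiotensin II + AEC and vehicle + AEC.

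**Figure D5:**
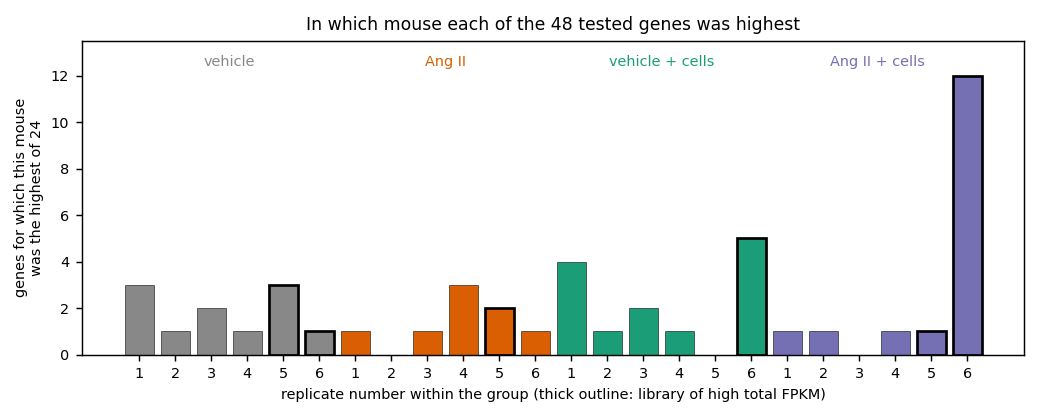
Number of the 48 tested chemokine and receptor genes for which each of the 24 mice had the highest FPKM, by group and replicate number; thick outlines mark the 6 libraries of high total FPKM. Angiotensin II + AEC replicate 6 is the highest for 12 genes, and the next mouse, vehicle + AEC replicate 6, for 5.

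The 250 bases before the RefSeq start (GRCm38.p6) are shown for 3 ligands that were highest in this mouse, 5′ to 3′ on the strand of the gene. The 3 were picked from the 12 members highest there, with those values known, and do not stand for all 12. Capitals mark matches on either strand to the TATA box letters TATAAA, to GAAANNGAA, the core of the interferon response element, and to GGANTTTCC, a form of the NF-kappaB site. The windows lie at chr11:82114935-82115184 (plus strand) for Ccl8, chr5:92328080-92328329 (minus strand) for Cxcl9 and chr5:92348890-92349139 (minus strand) for Cxcl10.
Ccl8: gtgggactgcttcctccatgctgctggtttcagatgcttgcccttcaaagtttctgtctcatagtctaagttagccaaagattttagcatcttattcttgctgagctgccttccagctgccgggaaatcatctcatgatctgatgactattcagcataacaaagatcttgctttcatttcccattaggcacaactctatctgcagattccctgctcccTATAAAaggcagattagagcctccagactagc
Cxcl9: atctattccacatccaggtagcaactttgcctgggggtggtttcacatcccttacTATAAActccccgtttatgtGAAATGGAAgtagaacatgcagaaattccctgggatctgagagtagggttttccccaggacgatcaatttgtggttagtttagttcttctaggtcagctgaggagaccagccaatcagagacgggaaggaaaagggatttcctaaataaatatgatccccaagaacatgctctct
Cxcl10: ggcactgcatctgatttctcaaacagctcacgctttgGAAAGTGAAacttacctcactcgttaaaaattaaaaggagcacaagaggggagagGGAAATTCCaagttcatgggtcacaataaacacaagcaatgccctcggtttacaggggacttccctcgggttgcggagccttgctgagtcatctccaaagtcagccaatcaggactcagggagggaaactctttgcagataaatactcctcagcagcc
The Ccl8 window holds 1 match, to the TATA box letters. That of Cxcl9 holds TATAAA and GAAANNGAA, and that of Cxcl10 holds GAAANNGAA and GGANTTTCC. Ccl27b, Ccl12, Ccl9, Ackr4, Ccr1, Ccl22 and Ccr3, also highest in that mouse, had no GAAANNGAA match in the windows found for them. Among the 50 promoters found for 43 of the 58 symbols, 14 (28%) held TATAAA, 8 (16%) GAAANNGAA and 5 (10%) GGANTTTCC, compared with 12.4%, 7.13% and 1.07% of the 32851 promoters in the table. The median GC content of these windows was 49.6% for the chemokine genes and 52.4% for all promoters. A match is a description of the letters and not evidence of binding.

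Other genes of the chemokine pathway were listed by role, and all 35 were tested. They comprised partners such as Cx3cr1, Xcl1, Pf4 and Mif, the signalling genes Gnai1 to Gnai3, arrestins and receptor kinases, the sheddases Adam10 and Adam17 that release Cx3cl1, and transcription factors that induce chemokines. Mif, a cytokine that binds Cxcr2 and Cxcr4, had a mean of 239 FPKM, above Cx3cl1, and Cx3cr1 had a mean of 8.46 FPKM. None had an adjusted p under 0.05 in any comparison. An unadjusted p under 0.05 was found for 0 of 35 between angiotensin II and vehicle, 0 between angiotensin II + AEC and angiotensin II, 1 between vehicle + AEC and vehicle, 0 between angiotensin II + AEC and vehicle + AEC, and 0 for the interaction. Over all genes tested the shares were 2.21%, 2.54%, 2.41%, 2.66% and 2.54% in the same order. The 1 of 35 (2.86%) is near its share, and nothing is read from it about the pathway. The 1 gene was Nfkbia, the NF-kappaB inhibitor, with a mean of 13.5 ± 3.47 FPKM (SD, n = 6) in vehicle + AEC and 10.9 ± 1.11 FPKM (SD, n = 6) in vehicle mice, a log2 difference of 0.27 ± 0.13 (SE; limma adjusted p = 0.995).

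Pairs of a ligand with a receptor, another ligand or a cell type marker were correlated across mice. This was done within the 18 and within the 6 libraries, which gave 16 correlations over 8 pairs. Cx3cl1 and Cx3cr1 had the lowest p, with Pearson's r = 0.65 (permutation p = 0.00375, adjusted p = 0.060) and Spearman's rho = 0.66 (permutation p = 0.00338, adjusted p = 0.0541) across the 18 libraries. Without the 2 mice farthest from the median of Cx3cl1, r was 0.64. The adjusted values missed 0.05, and across the 6 libraries r was -0.17 (exact permutation p = 0.754, adjusted p = 0.928) and rho was -0.43 (exact permutation p = 0.419, adjusted p = 0.928). Cxcl12 and its receptor Ackr3 gave r = 0.08 (permutation p = 0.745, adjusted p = 0.928) and rho = -0.02 (permutation p = 0.928, adjusted p = 0.928) across the 18 libraries. Cxcl12 and the fibroblast collagen Col1a1 gave r = 0.45 (permutation p = 0.0610, adjusted p = 0.363) and rho = 0.49 (permutation p = 0.0414, adjusted p = 0.331), with r = 0.54 without the 2 farthest mice. No other correlation had an adjusted p under 0.331.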

How the data were processed

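Poly-A selected brain RNA of 24 mice was sequenced, and each mouse was placed in its group and given its replicate number from the sample labels. No label used here links a replicate number to a shared litter or batch. The 6 libraries of high total FPKM were nonetheless all replicate 5 or 6 of their group. The authors deposited 1 table of FPKM values for 54532 genes, with gene lengths and GRCm38 coordinates. The submitters' processing notes name DESeq 1.10.1 and GRCm38 (mm10); the aligner, the counting of reads that fit several places and the use of strand are not given in the sources used here. Fragments per value were recovered from the smallest step of FPKM times length, and 100% of values were within 0.05 of a whole number.

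Differences were tested in R 4.3.3 with limma 3.58.1 (eBayes with trend) on log2(FPKM + 0.1), with the 4 groups in one fit, genes above 0 in at least 6 mice (27286 genes), and Benjamini-Hochberg adjustment over all of them. Fold changes on this scale understate changes of low genes. Single genes were also tested by two-sided exact permutation of 6 against 6 mice. Ratios of read sums have exact 95% intervals for counting error only and no fold is given where no mouse exceeded 3 reads. Correlations used 100000 permutations, or all of them for 6 mice. The fit was tested on simulated data without library sets and with changes only in genes of higher counts. That test says nothing on rows with few reads. Tables and plots used Python 3.11.15, pandas 2.3.3, numpy 2.4.6, scipy 1.17.1 and matplotlib 3.10.9.

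Full values were given for the 8 members of highest mean FPKM, the 2 members of lowest p and every member with an unadjusted p under 0.05 in each comparison, and Cxcl12, Cxcr4, Ackr3, Cx3cl1, Ccl2, Ccr2, Ccl5, Cxcl10, Cxcr3 and Ccl8. The values of 1 gene are not reported here, though counts over the family include it. The members and gene lists were chosen with earlier results of these data known. Cxcl9, Ccl27b and the others highest in 1 mouse, and Cadm3, were named after their values were seen. Promoters and transcripts came from RefSeq and GENCODE M21 tables of GRCm38, with matches for 43 of the 58 symbols.

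Alternatives were pseudocounts of 1 and 0.01, no filter, a mean of at least 1 FPKM, only the compared groups, the replicate number as a block, median-ratio scaling, voom on recovered reads, array weights, the library set as a term, only the 18 libraries, and each mouse left out.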

Additional observations from a re-analysis of the deposited data

Results flagged for a closer look

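In 80 groups of 6 mice (20 members in 4 groups), 9 held a mouse whose gap to the nearest other mouse exceeded Dixon's 95% limit for its group. Chance flags about 5% of groups where the groups are independent and their values normally distributed. These groups share mice and libraries, and some flags fall on rows with few reads, so the 9 are not read as an excess. In vehicle + AEC replicate 6, the 1 library of high total FPKM in its group, Cx3cl1 was 229.8 FPKM with the next mouse at 158.4, Cxcl14 was 87.53 with the next at 64.98, Ackr1 was 62.29 with the next at 40.39, and the chromosome 4 row of Ccl27a was 37.78 with the next at 29.79. Ccl5 was 0.5969 FPKM in the same mouse with the next at 0.1826.

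Angiotensin II + AEC replicate 6 had 0.8757 FPKM of Ccl8 with the next mouse at 0.3698, and 0.6707 FPKM of Cxcl10 with the next at 0.1519. In angiotensin II replicate 5, also a library of high total FPKM and the 1 of its group, the scaffold copy of Ccl27a was 6.80 FPKM with the next at 4.41. Cxcr2 in vehicle replicate 4 was 0.161 FPKM with the next at 0.0386. No member had an adjusted p under 0.05 for the interaction.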

How the results depend on the processing

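No member had an adjusted p under 0.05 in the 5 comparisons under any alternative other than leaving out a mouse, where only unadjusted p-values were counted. The number of members with an unadjusted p under 0.05 stayed within 1.5 times the value given in 41 of 54 fits that kept all mice or the 18 libraries. Between angiotensin II and vehicle it was 1 instead of 0 with only the groups compared, the replicate block, array weights, the library set as a term or only the 18 libraries. With a mean of at least 1 FPKM it was 0 in each of the other 4 comparisons, since that filter removes every member counted there. It was 4 instead of 2 with array weights between vehicle + AEC and vehicle, and 2 instead of 4 with only the groups compared between angiotensin II + AEC and vehicle + AEC. For the interaction it was 1 instead of 2 with a pseudocount of 0.01 and with voom; the cause was not tested. With 1 mouse left out it was 0 to 1 (angiotensin II against vehicle), 1 to 4 (angiotensin II + AEC against angiotensin II), 1 to 3 (vehicle + AEC against vehicle), 3 to 5 (angiotensin II + AEC against vehicle + AEC) and 1 to 3 (interaction). It moved by over 1.5 times to 1 when angiotensin II replicate 3 or 1 of the vehicle mice 1, 4 and 5 was left out (first comparison), angiotensin II replicate 5 or angiotensin II + AEC replicate 4 (second), vehicle + AEC replicate 2 or 5 (the third), and angiotensin II replicate 1 or 5 or angiotensin II + AEC replicate 1 (interaction). Shares over all genes tested are not given for the alternatives, so their counts are not read as results about the family.

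Among the fold changes given, differences near 0 changed sign. Cx3cl1 between angiotensin II + AEC and angiotensin II was -0.0006 with only the 18 libraries, and Ackr3 was -0.0042. Cxcl14 between angiotensin II and vehicle was 0.0147 with the library set as a term and 0.0221 with the 18 libraries, and Cxcl12 was 0.006 with voom. With 1 mouse left out, Cxcl12 ranged from -0.0377 to 0.0415 and Ackr3 from -0.0201 to 0.1029. The correlation of Cxcl12 and Cxcr4 turned to 0.0932, and that of Cxcl9 and Cxcl10 to -0.1869, without the 2 farthest mice. Ccl7 between vehicle + AEC and vehicle kept its sign and an unadjusted p under 0.05 in 12 of 12 fits with 1 mouse left out (0.95 to 1.26). Ccr10 kept an unadjusted p under 0.05 in 4 of 12 and Ccr2 in 3 of 12 such fits, and Ccl8 in 9 of 12 in each of its comparisons.

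Of 36 pairs of mice with the same replicate number, 28 had a correlation over 0.1 of their deviations from the group means. No such count is given for pairs with different numbers, so the 28 are not read as pairing. For 0 of the 24 mice was the mouse of the same number the most correlated one in every other group. The highest, 0.80, was between replicate 6 of vehicle and of vehicle + AEC, both libraries of high total FPKM. The lowest, -0.22, was between replicate 6 of angiotensin II + AEC, a library of that set, and of angiotensin II, which is outside it. The correlations hold the library sets as well, so they cannot decide whether the numbers pair the mice. With the replicate block the counts were 1, 2, 3, 6 and 3 in the order of comparisons just used. The share over all genes tested is not given for these counts either. Depth limits the 45 rows with a median under 10 reads, for which differences smaller than their intervals were not detectable.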
